A study of Homo sapiens with 12 samples.

Results

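The 58 genes described here belong to the families of glycosyltransferases that start, branch, extend and cap glycans, the sugar chains of glycoproteins and glycolipids. They were chosen by symbol alone, from probe sets with 1 gene symbol that belongs to the GALNT, ST3GAL, ST6GAL, ST6GALNAC, ST8SIA, FUT, B3GNT, B3GALT, B4GALT, MGAT or GCNT families and ends in a number or a number and a letter. The rule found 95 probe sets, and the brightest probe set by its mean over all 12 arrays stood for each gene, so that 58 of the 11963 genes measured belong to the set. Of these, 57 encode enzymes and 1, GCNT1P1, is a pseudogene. By role, 10 start O-linked chains, 4 branch them or form I branches, 3 extend chains with N-acetylglucosamine, 11 add galactose, 7 build the branches of N-glycans, 14 add sialic acid and 8 add fucose.

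Glycosyltransferases work one after another in the Golgi, each adding a single sugar to the product of an earlier enzyme, so the mixture of enzymes in a cell sets which glycans its surface proteins carry. Mucin-type O-glycosylation is started by the GALNT enzymes, which link N-acetylgalactosamine to serine or threonine. N-glycans are opened and branched by the MGAT enzymes, and both kinds of chain are extended by alternating galactose and N-acetylglucosamine and capped with sialic acid or fucose. EGFR itself is a heavily N-glycosylated receptor.

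Transcripts were measured on 12 expression arrays of HCC827 cells and cells derived from them, with 3 arrays in each of 4 groups. HCC827 is an established human lung adenocarcinoma line with an activating EGFR mutation. ERC4 cells, a single line labelled erlotinib resistant, were set against parental HCC827 cells. Erlotinib blocks the kinase of EGFR. Esh9-1 cells, which carry a lentiviral shRNA against EGFR under 1 shRNA label, were set against HCC827NT cells, which carry a lentiviral non-target shRNA. All cells grew in RPMI with 5% FBS and antibiotics, and both the Esh9-1 and the HCC827NT cells were also kept in puromycin at 5 ug/ml. One characteristic in the labels calls all 12 samples resistant to EGFR kinase inhibitors, the parental cells included, so groups were taken from the titles. Whether replicates came from separate cultures is not stated, so each p-value reflects only how far these arrays scatter, which may be technical.

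The values are array intensities, given here as log2(intensity + 1). Array medians were 50 to 51.1 in ERC4 and 52.6 to 53.0 in HCC827, against 142.7 to 143.4 in Esh9-1 and 141.2 to 143.4 in HCC827NT, so levels were compared only within each pair. Within each group the arrays had pairwise correlations of at least 0.9919 over probe sets. EGFR was checked first. Its log2 level was 12.16, 12.27 and 12.32 in Esh9-1 and 13.47, 13.66 and 13.51 in HCC827NT, a log2 fold change of -1.30 ± 0.07 (SE; limma adjusted p = 2e-09). In ERC4 it was 12.56, 12.70 and 12.52, against 12.41, 12.34 and 12.40 in HCC827, a log2 fold change of 0.21 ± 0.07 (limma adjusted p = 0.025). That call was lost without HCC827 replicate 2 (0.067), without ERC4 replicate 2 (0.11) and after quantile normalization (0.19). The mean level of 18 hybridisation control probe sets was 9.48 in ERC4, against 11.04 in HCC827, and 11.92 in Esh9-1, against 11.37 in HCC827NT. The 3′ minus 5′ difference of the ACTB control probe sets, which widens when RNA is broken or copied in part, was 1.07 ± 0.15 in Esh9-1 and 0.20 ± 0.03 in HCC827NT, and 0.19 ± 0.04 in ERC4 and 0.22 ± 0.05 in HCC827 (SD, n = 3 arrays each). Their part in the changes below was not tested.

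Markers of epithelial cells moved with both comparisons. All 6 measured (EPCAM, CDH1, KRT7, KRT8, KRT18 and KRT19) fell in ERC4 and in Esh9-1, with median log2 fold changes of -1.77 and -3.32. Of all genes, 8.8% were called lower in both. Their summed intensity was 7844 to 8285 in ERC4, against 18139 to 18461 in HCC827, and 10021 to 10432 in Esh9-1, against 57508 to 58869 in HCC827NT. CDH1, the E-cadherin of epithelial junctions, fell 6.73-fold in ERC4 and 77.6-fold in Esh9-1 and lay below the array median in all 3 Esh9-1 arrays. No marker was listed at 0. The part of this loss in the glycosyltransferase changes was not tested, and fewer cells of a type cannot be told apart from less RNA per cell in such bulk samples. The summed intensity of 10 fibroblast and endothelial markers was 389 to 419 in ERC4, against 481 to 486 in HCC827, and 1064 to 1115 in Esh9-1, against 1024 to 1109 in HCC827NT, while 8 or 9 of the 10 lay below the median in every array of each group. COL1A1, a collagen of fibroblasts, did not: its mean log2 level was 7.35 in ERC4, against 7.65 in HCC827, and 8.97 in Esh9-1, against 9.05 in HCC827NT. LUM, another fibroblast marker, rose 5.92-fold in Esh9-1 to a mean of 6.78, against 4.22 in HCC827NT. Of the 8 leukocyte markers, none rose, 3 fell in ERC4 (37.5%, against 28.8% of all genes) and 1 fell in Esh9-1 (12.5%, against 24.6%). Their summed intensities were 221 to 226 in ERC4, 246 to 271 in HCC827, 421 to 463 in Esh9-1 and 421 to 455 in HCC827NT.

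In ERC4 cells the glycosyltransferases fell more often than they rose. At a limma adjusted p under 0.05 over all genes, 29 of the 58 were lower in ERC4 (50%) and 10 were higher (17.2%), against 28.8% lower and 28.9% higher among all genes tested. The median log2 fold change was -0.23 over the 58, against -0.04 over all genes. Changes of at least 2-fold were seen in 6 genes that fell and 1 that rose, against 1.79% and 4.51% of all genes. The 3 ERC4 arrays all lay below the 3 HCC827 arrays for 31 genes and all above them for 9, against 30.7% and 29.8% of all genes. Calls were also set against genes of like signal. All genes were ranked by mean signal and parted into 3 classes of equal size. Of the 21 genes in the dimmest class 7 fell, against 36.1% of all genes there. Of the 23 in the middle class 17 fell, against 33.6%, and of the 14 in the brightest class 5 fell, against 16.8%.

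In Esh9-1 cells the set was balanced. Of the 58 genes, 13 were lower (22.4%) and 14 were higher (24.1%), shares near the 24.6% lower and 25.3% higher among all genes, and the median log2 fold change was -0.02, as over all genes. Changes of at least 2-fold were seen in 5 genes that fell and 3 that rose, against 4.11% and 4.89% of all genes. The Esh9-1 arrays all lay below the HCC827NT arrays for 19 genes and all above them for 17, against 31.2% and 30.2% of all genes. Levels set the limits of both comparisons: 21 of the 58 genes averaged below the array median in both ERC4 and HCC827, and 27 did so in both Esh9-1 and HCC827NT. The values hold no detection calls, so how far such genes lie above background cannot be told. For those near background a fold change is understated.

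**Figure D1:**
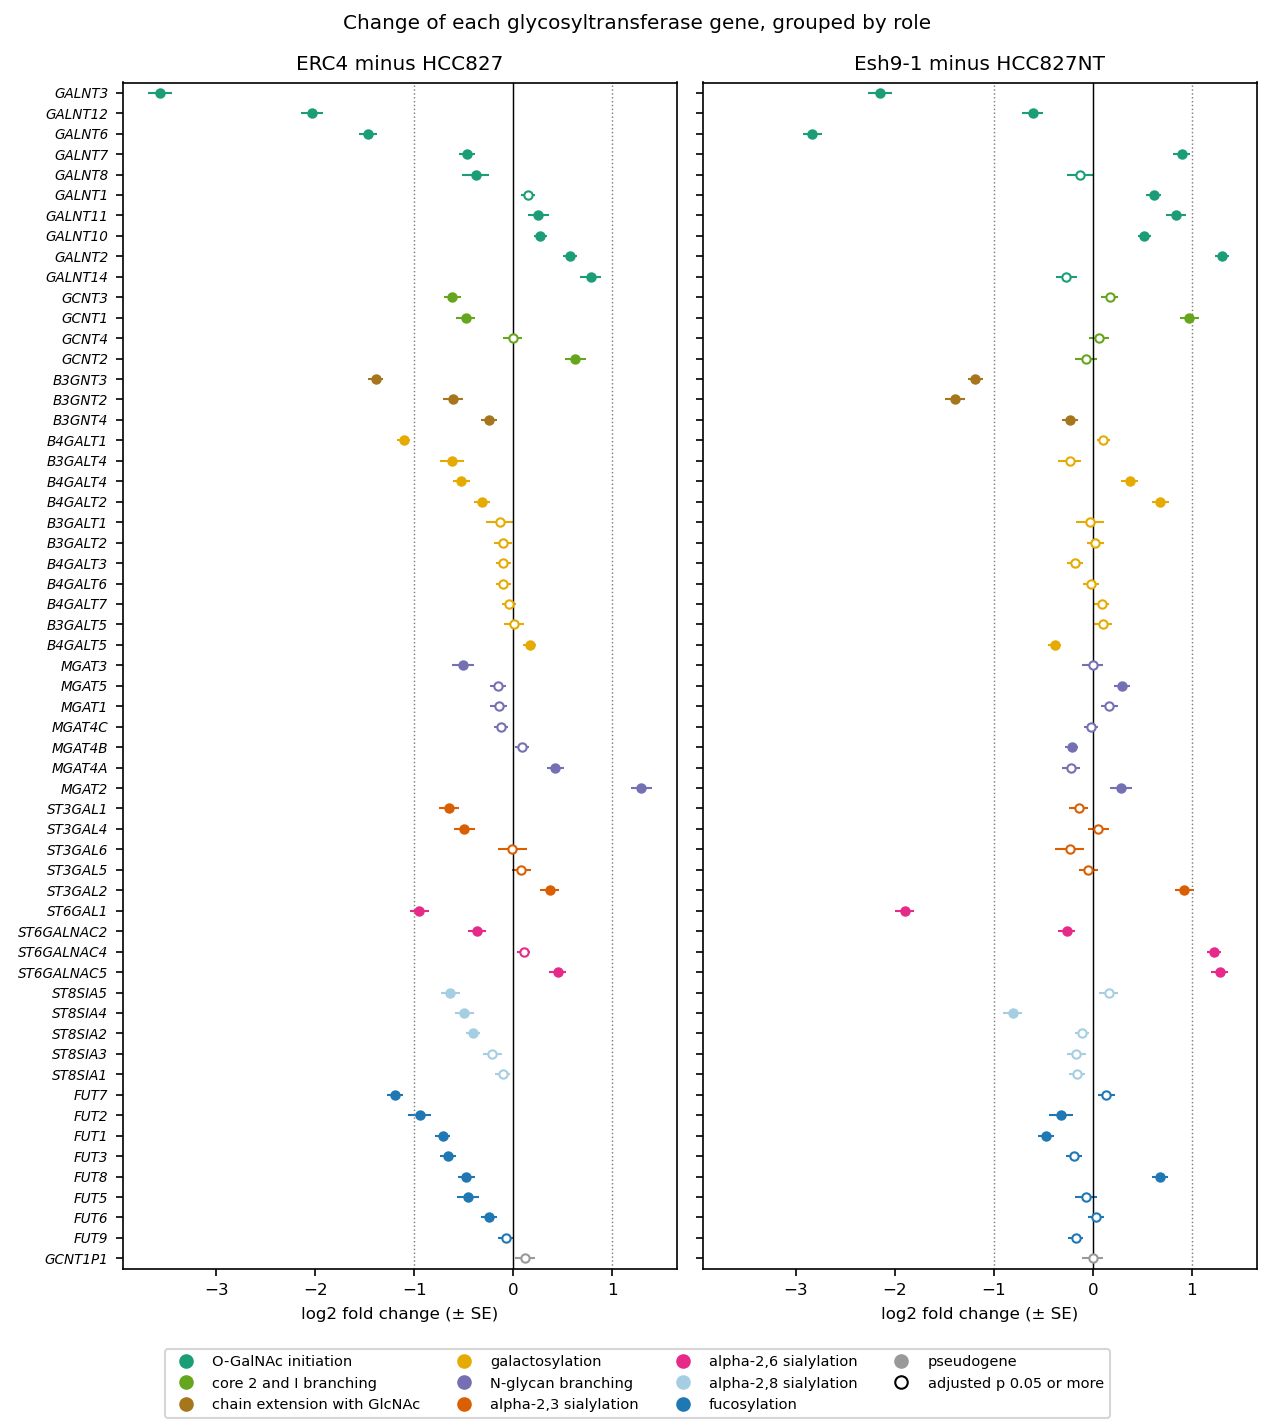
Log2 fold change (x axis, ± SE) of each of the 58 genes in ERC4 minus HCC827 (left) and Esh9-1 minus HCC827NT (right), 1 gene per row, coloured by role. Filled points passed a limma adjusted p of 0.05, open points did not, and dotted lines mark 2-fold; GALNT3 at -3.57 and GALNT6 at -2.83 lie farthest out, and all but 1 of the fucosyltransferases are filled and left of 0 in ERC4.

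The comparisons share no arrays, and 17 genes were called in the same direction in both. The 11 that fell in both were GALNT3, GALNT6, GALNT12, B3GNT2, B3GNT3, B3GNT4, ST6GAL1, ST6GALNAC2, ST8SIA4, FUT1 and FUT2, against 8.8% of all genes. The 6 that rose in both were GALNT2, GALNT10, GALNT11, MGAT2, ST3GAL2 and ST6GALNAC5, against 13.4% of all genes. Opposite calls were made for 6 genes, against 9.65% of all genes. Of these, GALNT7, GCNT1, FUT8, B4GALT2 and B4GALT4 fell in ERC4 and rose in Esh9-1, and B4GALT5 rose in ERC4 and fell in Esh9-1. Over the 58 genes the log2 fold changes of the comparisons had a Pearson r of 0.60 and a Spearman rho of 0.38, against 0.37 and 0.28 over all genes. These values describe the genes, which are not replicates.

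**Figure D2:**
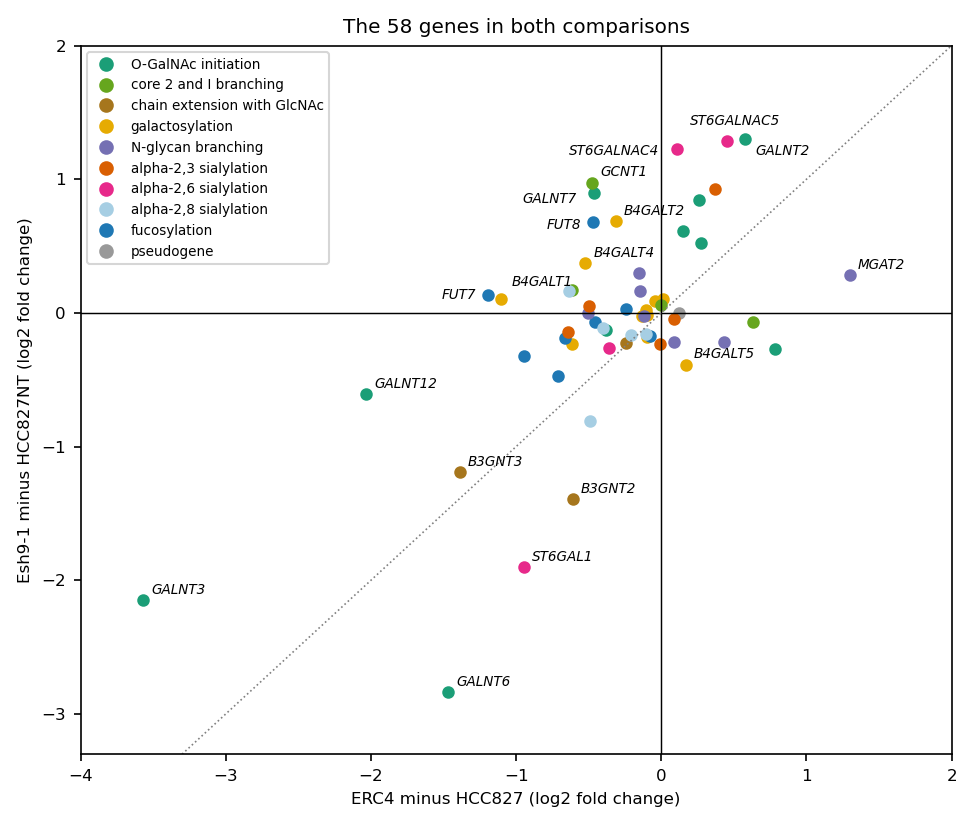
Log2 fold change in ERC4 minus HCC827 (x axis) against that in Esh9-1 minus HCC827NT (y axis) for the 58 genes, coloured by role; the dotted line marks equal changes. GALNT3, GALNT6, GALNT12, B3GNT2, B3GNT3 and ST6GAL1 lie in the lower left, and most of the other genes lie within 1 of 0 on both axes.

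Ranked by the smaller of their 2 decreases, the 6 genes with the largest decreases called in both comparisons were GALNT3, GALNT6, B3GNT3, ST6GAL1, B3GNT2 and GALNT12. The start regions of 5 of them are shown, since these decreases recur in arrays that share no sample. The windows are RefSeq's for GRCh38.p14 and run from 250 bases before to 50 bases after the gene's start, in the gene's direction. The E-box CACCTG, read on either strand and so also as CAGGTG, was searched in them because epithelial repressors of the ZEB and SNAI families are known to bind it. Capitals mark it. GALNT3 lies at chr2:165794198-165794497 on the minus strand. B3GNT3 lies at chr19:17794888-17795187, ST6GAL1 at chr3:186930276-186930575, B3GNT2 at chr2:62195865-62196164 (the first of its 2 windows) and GALNT12 at chr9:98807420-98807719, all on the plus strand.
GALNT3: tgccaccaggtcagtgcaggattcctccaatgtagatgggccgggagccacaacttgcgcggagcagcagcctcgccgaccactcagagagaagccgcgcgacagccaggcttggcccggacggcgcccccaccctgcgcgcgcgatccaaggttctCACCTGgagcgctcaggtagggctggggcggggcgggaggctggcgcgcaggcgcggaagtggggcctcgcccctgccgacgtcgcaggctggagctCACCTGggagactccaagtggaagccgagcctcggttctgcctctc
B3GNT3: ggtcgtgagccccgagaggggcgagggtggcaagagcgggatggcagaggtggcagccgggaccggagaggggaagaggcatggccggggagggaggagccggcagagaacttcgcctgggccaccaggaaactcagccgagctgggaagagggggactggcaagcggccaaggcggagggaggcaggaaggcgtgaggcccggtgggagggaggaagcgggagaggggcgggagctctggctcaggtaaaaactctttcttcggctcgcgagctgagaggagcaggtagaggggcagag
ST6GAL1: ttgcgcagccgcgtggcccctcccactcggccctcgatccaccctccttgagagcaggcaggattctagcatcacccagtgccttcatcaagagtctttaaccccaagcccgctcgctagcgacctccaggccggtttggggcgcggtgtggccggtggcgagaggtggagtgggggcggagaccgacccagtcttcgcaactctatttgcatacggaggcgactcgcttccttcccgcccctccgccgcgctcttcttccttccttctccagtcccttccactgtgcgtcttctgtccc
B3GNT2: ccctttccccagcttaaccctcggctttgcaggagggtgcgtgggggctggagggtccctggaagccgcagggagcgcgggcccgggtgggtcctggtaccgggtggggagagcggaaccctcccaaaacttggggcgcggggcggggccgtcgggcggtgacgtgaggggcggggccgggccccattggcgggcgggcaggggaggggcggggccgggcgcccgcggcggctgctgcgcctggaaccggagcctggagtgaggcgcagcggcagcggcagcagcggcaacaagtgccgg
GALNT12: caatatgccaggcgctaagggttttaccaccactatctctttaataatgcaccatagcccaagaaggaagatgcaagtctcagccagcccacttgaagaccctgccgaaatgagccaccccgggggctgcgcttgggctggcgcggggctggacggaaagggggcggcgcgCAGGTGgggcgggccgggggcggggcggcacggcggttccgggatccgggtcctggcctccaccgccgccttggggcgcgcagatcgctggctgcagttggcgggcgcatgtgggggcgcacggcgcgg
GALNT3 held the motif at 2 places, starting at positions -93 and 5 relative to the gene's start, and GALNT12 at 1, starting at -79. B3GNT3, ST6GAL1 and B3GNT2 held none, so 2 of the 5 windows held it. Over all 35116 windows of that length, 20.6% held the motif and 3.49% held 2 or more, while of the 79 windows matched to 44 of the 58 genes 21.5% held it and 7.59% held 2 or more. Counted by gene, 36.4% of the 44 held it in a window, against 24.1% of all genes with a window. For 2 or more in a window the shares were 13.6% and 4.22%. A gene with several windows has more chances to hold it. Of the 8 genes called lower in both comparisons that had a window, 4 held it. These are matches of letters, not binding sites.

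Of the 10 enzymes that start O-glycans, 5 fell and 4 rose in ERC4 (50% and 40%, against 28.8% and 28.9% of all genes). In Esh9-1, 3 fell and 5 rose (30% and 50%, against 24.6% and 25.3% of all genes). GALNT3, GALNT6 and GALNT12 fell in both. GALNT3, which in humans glycosylates the phosphate hormone FGF23, had log2 levels of 3.47, 3.48 and 3.47 in ERC4, against 6.69, 7.31 and 7.13 in HCC827. It had 7.59, 7.38 and 7.32 in Esh9-1, against 9.65, 9.54 and 9.53 in HCC827NT. No arrays overlapped in either pair, and the ERC4 arrays lay far below the array medians of 5.67 to 5.70. The log2 fold change was -3.57 ± 0.12 in ERC4, an 11.9-fold decrease (limma adjusted p = 2.8e-11), and -2.15 ± 0.12 in Esh9-1, a 4.43-fold decrease (limma adjusted p = 2e-09). As the mean of its probe sets it was -1.85 and -1.01.

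GALNT6, which glycosylates fibronectin, had log2 levels of 4.75, 4.71 and 4.65 in ERC4, against 6.10, 6.35 and 6.06 in HCC827. It had 6.38, 6.48 and 6.37 in Esh9-1, against 9.05, 9.34 and 9.34 in HCC827NT. The groups were apart in both pairs, and the log2 fold change was -1.47 ± 0.09 in ERC4 (limma adjusted p = 1.2e-08) and -2.83 ± 0.09 in Esh9-1 (limma adjusted p = 4e-12), so that it was the largest change among the 58 genes in Esh9-1. GALNT12 had 3.60, 3.57 and 3.65 in ERC4, against 5.52, 5.91 and 5.48 in HCC827, where its mean too lay below the array median. It had 7.51, 7.44 and 7.28 in Esh9-1, against 7.92, 7.95 and 8.19 in HCC827NT. Its log2 fold change was -2.03 ± 0.11 in ERC4 (limma adjusted p = 2.1e-09) and -0.61 ± 0.11 in Esh9-1 (limma adjusted p = 0.00026).

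GALNT2, a widely expressed starter enzyme, moved the other way. Its log2 levels were 9.44, 9.45 and 9.38 in ERC4, against 8.92, 8.84 and 8.77 in HCC827, and 11.45, 11.42 and 11.33 in Esh9-1, against 9.98, 10.13 and 10.19 in HCC827NT. The ERC4 and Esh9-1 arrays lay wholly above those they were set against, by a log2 fold change of 0.58 ± 0.07 in ERC4 (limma adjusted p = 1e-05) and 1.30 ± 0.07 in Esh9-1 (limma adjusted p = 1.4e-09). As the mean of its probe sets the Esh9-1 value was 0.74. The other probe set had 0.80 in ERC4 and 0.18 in Esh9-1, where it did not pass (limma adjusted p = 0.11). GALNT10, which acts on peptides that already carry N-acetylgalactosamine, rose by 0.27 in ERC4 and 0.52 in Esh9-1, although quantile normalization left 0.03 of the ERC4 rise (limma adjusted p = 0.71). The other GALNT10 probe set had 0.44 in ERC4 (limma adjusted p = 0.0026) and 0.05 in Esh9-1, where it did not pass (0.73). GALNT11 rose by 0.84 in Esh9-1. Its ERC4 rise of 0.26 had overlapping arrays, a limma adjusted p of 0.044 and no call without any 1 of ERC4 replicates 1 and 2, HCC827 replicates 2 and 3, HCC827NT replicate 3 and Esh9-1 replicate 1, for which the limma adjusted p lay between 0.052 and 0.19; without HCC827 replicate 2 the rise was 0.17. GALNT7, another enzyme that follows an earlier GALNT, had 7.05, 7.25 and 7.20 in ERC4, against 7.51, 7.74 and 7.65 in HCC827, and 10.89, 10.88 and 10.94 in Esh9-1, against 10.08, 9.86 and 10.08 in HCC827NT. It fell by 0.47 in ERC4 and rose by 0.90 in Esh9-1, with no overlap in either pair. GALNT14 rose by 0.79 in ERC4, while its Esh9-1 log2 fold change was -0.27 (limma adjusted p = 0.052). GALNT1, another widely expressed starter, rose by 0.62 in Esh9-1. GALNT8 was dim in all groups and fell by 0.38 in ERC4, with no call without HCC827 replicate 1, where it fell by 0.18 (limma adjusted p = 0.11), without ERC4 replicate 1 (0.071), without ERC4 replicate 2 (0.08), or after quantile normalization (0.14).

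**Figure D3:**
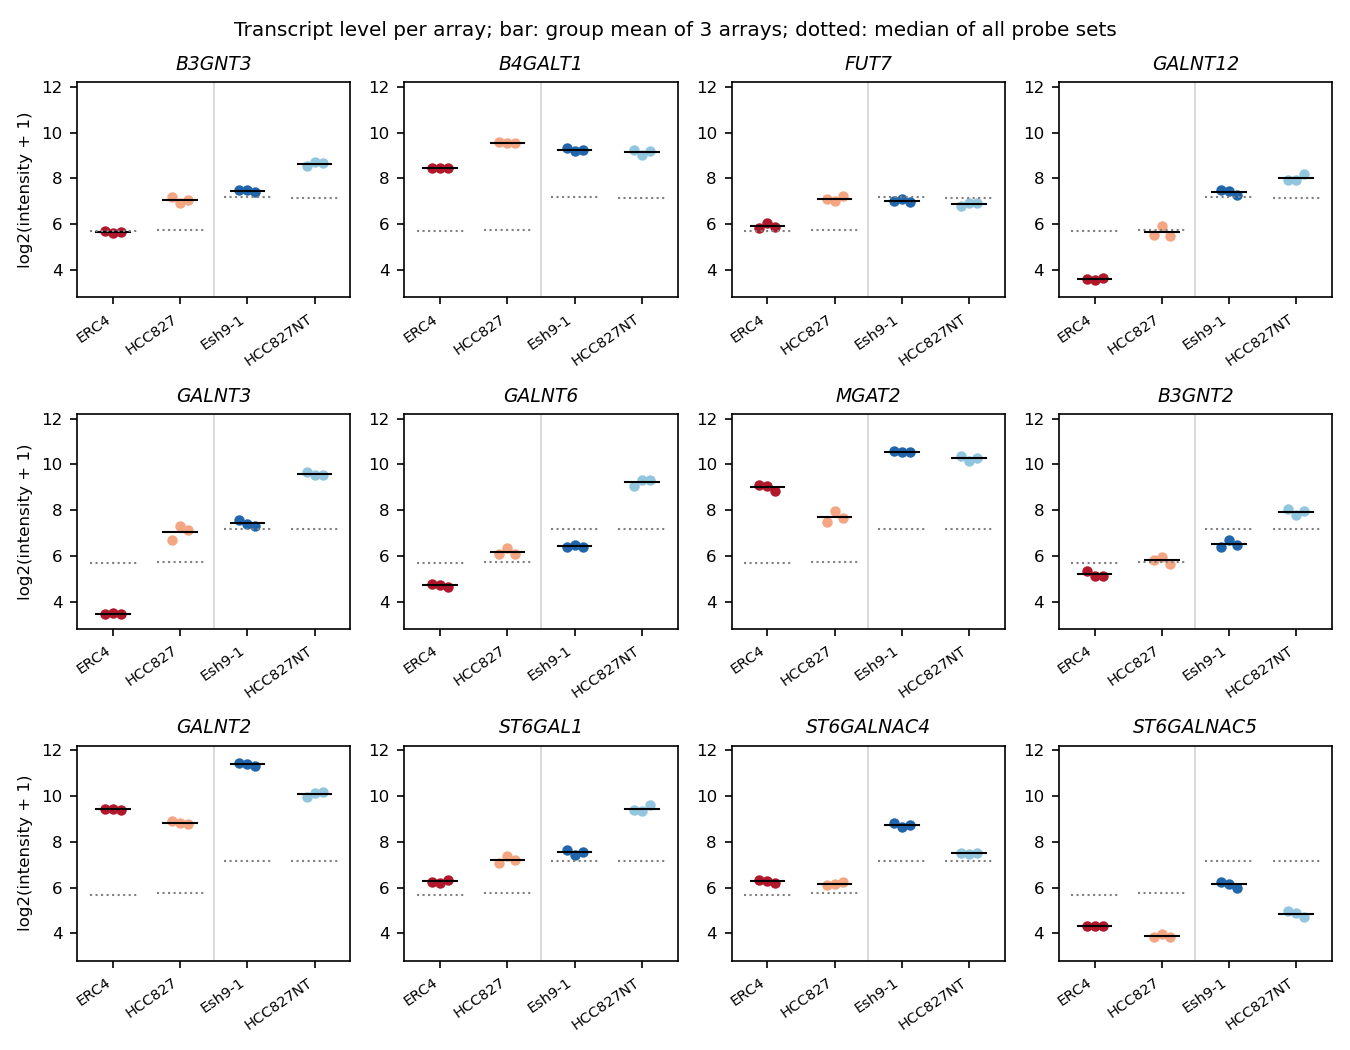
Log2(intensity + 1) on each array (points, 3 per group) and the group mean (bar) of the 12 genes changed at least 2-fold in either comparison; dotted lines mark the median of all probe sets in each group, and the grey line parts the 2 pairs, whose array medians differ. GALNT3 and GALNT12 in ERC4 lie near 3.5, while MGAT2, GALNT2 and B4GALT1 lie above the median in every group.

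The enzymes that branch and extend chains differed from one another. All 3 that extend chains with N-acetylglucosamine fell in both comparisons, as did 8.8% of all genes. B3GNT3, which extends the simplest O-glycan core, had log2 levels of 5.71, 5.63 and 5.64 in ERC4, against 7.17, 6.93 and 7.04 in HCC827. It had 7.52, 7.48 and 7.39 in Esh9-1, against 8.55, 8.74 and 8.66 in HCC827NT. The decreases were of similar size, -1.39 ± 0.08 in ERC4 (limma adjusted p = 2.6e-09) and -1.19 ± 0.08 in Esh9-1 (limma adjusted p = 6.9e-09), and the difference between them, -0.20 ± 0.11, did not pass the test (limma adjusted p = 0.14).

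B3GNT2, the main enzyme of poly-N-acetyllactosamine chains, had 6.40, 6.68 and 6.49 in Esh9-1, against 8.03, 7.77 and 7.95 in HCC827NT, and 5.33, 5.12 and 5.12 in ERC4, against 5.81, 5.96 and 5.64 in HCC827. Its arrays did not overlap in either pair, with log2 fold changes of -1.39 ± 0.10 in Esh9-1 (limma adjusted p = 3.3e-08) and -0.61 ± 0.10 in ERC4 (limma adjusted p = 0.00016). B3GNT4 fell by 0.25 in ERC4 and 0.23 in Esh9-1. The ERC4 call was lost without HCC827 replicate 3 (limma adjusted p = 0.05) or ERC4 replicate 2 (0.087), and the Esh9-1 call without HCC827NT replicate 1 (0.076), HCC827NT replicate 2 (0.089), Esh9-1 replicate 2 (0.094) or Esh9-1 replicate 3 (0.11).

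GCNT1, which makes the core 2 branch of O-glycans, had 5.72, 5.56 and 5.29 in ERC4, against 5.91, 6.05 and 6.04 in HCC827, and 8.20, 8.06 and 8.03 in Esh9-1, against 7.20, 7.09 and 7.08 in HCC827NT. It fell by 0.48 in ERC4 and rose by 0.98 in Esh9-1 with no overlap of arrays. GCNT3, which makes core 2 and core 4 branches, fell by 0.61 in ERC4, and GCNT2, which makes the I branch, rose by 0.63 in ERC4, while neither passed the test in Esh9-1. GCNT4 passed in neither comparison, with log2 fold changes of -0.01 in ERC4 and 0.06 in Esh9-1.

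Of the 11 galactosyltransferases, 4 fell and 1 rose in ERC4, and 1 fell and 2 rose in Esh9-1. The shares lower were 36.4% in ERC4, against 28.8% of all genes, and 9.09% in Esh9-1, against 24.6%. The shares higher were 9.09% in ERC4, against 28.9% of all genes, and 18.2% in Esh9-1, against 25.3%. B4GALT1, the main enzyme that adds galactose to N-acetylglucosamine and a part of lactose synthase, had log2 levels of 8.46, 8.47 and 8.46 in ERC4, against 9.58, 9.56 and 9.56 in HCC827. It had 9.34, 9.20 and 9.26 in Esh9-1, against 9.23, 9.04 and 9.21 in HCC827NT. The ERC4 arrays lay wholly below the HCC827 arrays, by -1.11 ± 0.07 (limma adjusted p = 8.5e-09), while the arrays of Esh9-1 and HCC827NT overlapped (0.11 ± 0.07, limma adjusted p = 0.22). As the mean of 4 probe sets these values were -0.52 and -0.39.

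B4GALT2 had 7.87, 7.88 and 8.03 in ERC4, against 8.31, 8.17 and 8.24 in HCC827, and 10.39, 10.30 and 10.13 in Esh9-1, against 9.49, 9.66 and 9.62 in HCC827NT. It thus fell by 0.32 in ERC4 and rose by 0.68 in Esh9-1, each with no overlap. B4GALT4 had 5.78, 6.11 and 5.86 in ERC4, against 6.53, 6.37 and 6.41 in HCC827, and 8.16, 8.28 and 8.24 in Esh9-1, against 7.80, 7.83 and 7.93 in HCC827NT. On this probe set it fell by 0.52 in ERC4 and rose by 0.37 in Esh9-1 with no overlap, while its other probe set had 0.53 in ERC4 and -0.07 in Esh9-1.

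B4GALT5, which makes lactosylceramide, had 10.04, 9.99 and 9.99 in Esh9-1, against 10.33, 10.41 and 10.43 in HCC827NT, and 9.73, 9.75 and 9.61 in ERC4, against 9.48, 9.55 and 9.54 in HCC827. The arrays of neither pair overlapped. It fell by 0.39 in Esh9-1, although its other probe set had -0.04 there (limma adjusted p = 0.69) and 0.60 in ERC4 (limma adjusted p = 1e-05). Its rise of 0.17 in ERC4 was called at a limma adjusted p of 0.036, turned to -0.07 after quantile normalization (0.39) and was not called without ERC4 replicate 1 (0.094), ERC4 replicate 2 (0.12), HCC827 replicate 1 (0.093) or HCC827 replicate 3 (0.056). B3GALT4, which acts on gangliosides, fell by 0.62 in ERC4, while its Esh9-1 value of -0.23 did not pass (limma adjusted p = 0.12). Its other probe set was called lower in both, with -0.23 in ERC4 (limma adjusted p = 0.044) and -0.38 in Esh9-1 (0.0028). As the mean of its probe sets the Esh9-1 value was -0.305 (0.013). On their brightest probe sets B3GALT1, B3GALT2, B3GALT5, B4GALT3, B4GALT6 and B4GALT7 passed the test in neither comparison, with log2 fold changes between -0.18 and 0.10. B4GALT7 adds the first galactose of the proteoglycan linker. The other probe set of B4GALT6 passed in Esh9-1 with 0.58 (limma adjusted p = 0.00071) and did not pass in ERC4 (0.08, limma adjusted p = 0.57).

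Of the 7 enzymes that branch N-glycans, 2 rose and 1 fell in each comparison (28.6% and 14.3%), against 28.9% higher and 28.8% lower among all genes in ERC4 and 25.3% and 24.6% in Esh9-1. MGAT2, which adds the second N-acetylglucosamine branch and so completes a biantennary chain, had 9.08, 9.06 and 8.85 in ERC4, against 7.49, 7.97 and 7.64 in HCC827. It had 10.59, 10.54 and 10.53 in Esh9-1, against 10.36, 10.15 and 10.28 in HCC827NT. The rise in ERC4 was 1.30 ± 0.11 (limma adjusted p = 1.8e-07), the only rise of at least 2-fold among the 58 genes in that comparison, and 0.67 as the mean of its probe sets. The Esh9-1 rise of 0.29 ± 0.11 had a limma adjusted p of 0.04, was lost on median centring (0.06) or without Esh9-1 replicates 1 (0.1), 2 (0.075) or 3 (0.067) or HCC827NT replicates 2 (0.15) or 3 (0.074), and was -0.28 as the mean of its probe sets (0.0019).

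MGAT3, which adds the bisecting N-acetylglucosamine, fell by 0.51 in ERC4 and had a log2 fold change of 0.00 in Esh9-1. MGAT4A, one of the enzymes that add a further branch, rose by 0.43 in ERC4 but was dim, with means of 3.79 in ERC4 and 3.36 in HCC827. MGAT5, which adds the branch that galectins read through its long chains, rose by 0.29 in Esh9-1 and by 0.05 as the mean of its probe sets (limma adjusted p = 0.54). MGAT4B fell by 0.21 in Esh9-1, and the call was lost without HCC827NT replicate 2 (0.066) or Esh9-1 replicate 1 (0.078). MGAT1, which opens the path to hybrid and complex chains, and MGAT4C passed in neither comparison.

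Sialyltransferases are grouped here by the linkage they make. Among the ST6 enzymes, which link sialic acid through the sixth carbon of the sugar below, ST6GAL1 fell in both comparisons. It caps the galactose of N-glycans. Its log2 levels were 7.66, 7.41 and 7.56 in Esh9-1, against 9.37, 9.34 and 9.62 in HCC827NT, and 6.25, 6.21 and 6.33 in ERC4, against 7.07, 7.37 and 7.19 in HCC827. The arrays were apart in both pairs, by -1.90 ± 0.10 in Esh9-1 (limma adjusted p = 5.3e-10) and -0.95 ± 0.10 in ERC4 (limma adjusted p = 1.4e-06). As the mean of its probe sets the values were -1.17 and -0.59.

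The other ST6 enzymes act on O-glycans or gangliosides, and 2 of the 3 rose in Esh9-1, where 25.3% of all genes rose. ST6GALNAC4, which caps sialylated O-glycan cores, had 8.80, 8.64 and 8.73 in Esh9-1, against 7.51, 7.46 and 7.52 in HCC827NT, a rise of 1.23 ± 0.07 (limma adjusted p = 1.4e-09). In ERC4 it had 6.33, 6.28 and 6.21, against 6.11, 6.14 and 6.25 in HCC827, where the arrays overlapped (0.11 ± 0.07, limma adjusted p = 0.19). ST6GALNAC5, a ganglioside enzyme, stayed below the array median in all groups, with 6.26, 6.17 and 5.98 in Esh9-1, against 4.96, 4.89 and 4.71 in HCC827NT, and 4.34, 4.33 and 4.30 in ERC4, against 3.82, 3.97 and 3.83 in HCC827. It rose by 1.28 ± 0.09 in Esh9-1 (limma adjusted p = 1e-08) and by 0.45 ± 0.09 in ERC4 (limma adjusted p = 0.00042). ST6GALNAC2, which acts on O-glycans, fell by 0.26 in Esh9-1, a call lost without HCC827NT replicate 1 (0.078), HCC827NT replicate 2 (0.053) or Esh9-1 replicate 1 (0.088), and by 0.36 in ERC4.

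Among the ST3 enzymes, which link through the third carbon, ST3GAL2 rose in both comparisons, by 0.37 ± 0.09 in ERC4 and 0.93 ± 0.09 in Esh9-1. Its other probe set had 0.07 in ERC4, where it did not pass (limma adjusted p = 0.66), and 1.45 in Esh9-1 (8e-08). ST3GAL1, which caps the core of O-glycans, and ST3GAL4 fell by 0.65 and 0.50 in ERC4 and did not pass in Esh9-1. ST3GAL5, which makes the simplest ganglioside, and ST3GAL6 passed in neither comparison on their brightest probe sets. A dimmer probe set of ST3GAL6 passed in ERC4 alone, with -0.26 (limma adjusted p = 0.015). Another passed in Esh9-1 alone, with 0.23 (limma adjusted p = 0.0098). The ST8 enzymes, which link sialic acid to sialic acid, were dim: the highest group mean of any of the 5 was 5.99, that of ST8SIA4 in HCC827NT. ST8SIA4, a polysialyltransferase, fell by 0.81 in Esh9-1 and 0.49 in ERC4. ST8SIA2, the other polysialyltransferase, fell by 0.40 and ST8SIA5 by 0.64 in ERC4, and neither passed in Esh9-1.

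Of the 8 fucosyltransferases reported, 7 were called lower in ERC4 (87.5%, against 28.8% of all genes). On its brightest probe set FUT9 was not (-0.07, limma adjusted p = 0.41). The other probe sets of FUT9 were called lower there, with -0.41 (limma adjusted p = 0.00019) and -0.20 (0.045). As the mean of its probe sets FUT9 had -0.23 (0.0043). FUT3, FUT5 and FUT6 have nearly identical sequences, so their probe sets can read one another's transcripts and these 3 calls may not be separate observations. In Esh9-1, 2 fell (25%, against 24.6% of all genes), 1 rose and 5 did not pass. FUT7, which makes the sialyl Lewis x ligand of selectins, had log2 levels of 5.85, 6.03 and 5.87 in ERC4, against 7.08, 7.0 and 7.25 in HCC827. In Esh9-1 it had 7.01, 7.11 and 6.95, against 6.80, 6.92 and 6.94 in HCC827NT. The ERC4 arrays lay wholly below the HCC827 arrays, by -1.19 ± 0.08 (limma adjusted p = 3e-08), or by -0.71 as the mean of its probe sets, while the Esh9-1 value of 0.14 ± 0.08 did not pass (limma adjusted p = 0.19).

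FUT2, the secretor enzyme, fell by 0.95 in ERC4 and FUT1, which makes the H antigen, by 0.71, and both also fell in Esh9-1, by 0.32 and 0.47. The FUT2 call in Esh9-1 was lost without Esh9-1 replicate 1, where it fell by 0.19 (limma adjusted p = 0.19), and without Esh9-1 replicate 2 (0.059) or HCC827NT replicates 1 (0.051), 2 (0.1) or 3 (0.078). FUT8, which adds the core fucose of N-glycans, had 6.89, 6.67 and 6.62 in ERC4, against 7.34, 7.14 and 7.11 in HCC827, and 9.80, 9.83 and 9.85 in Esh9-1, against 9.17, 9.10 and 9.19 in HCC827NT. It fell by 0.47 in ERC4 and rose by 0.68 in Esh9-1, with no overlap. FUT3, FUT5 and FUT6, the Lewis enzymes, fell by 0.66, 0.45 and 0.25 in ERC4. The FUT6 call was lost without HCC827 replicate 1 (0.074) or ERC4 replicate 3 (0.064).

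Probe sets of the same gene did not always move together. Of the 58 genes, 26 had several, and 1 gene in each comparison had probe sets called in opposite directions. B4GALT4 in ERC4 had -0.52 on its brightest probe set and 0.53 on the other. MGAT2 in Esh9-1 had 0.29 on its brightest probe set, -0.41 on the next and -0.72 on the dimmest. For both genes the direction in that comparison therefore rests on which probe set is read. The dimmer probe set of GALNT3 was dim, with means of 4.76 in ERC4 and 4.89 in HCC827, and had log2 fold changes of -0.14 in ERC4 and 0.13 in Esh9-1, neither of which passed. GALNT1, not called in ERC4 on its brightest probe set, had 1.12 and 1.42 on the other 2, and both passed. B4GALT1 in Esh9-1 had 0.11 on its brightest probe set and -0.78 and -0.74 on others of the 4, and the last 2 values passed. The ST6GAL1 decrease in Esh9-1 was seen on 2 of 3 probe sets (-1.90 and -1.68) and the ST6GALNAC4 rise on both (1.23 and 1.07).

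**Figure D4:**
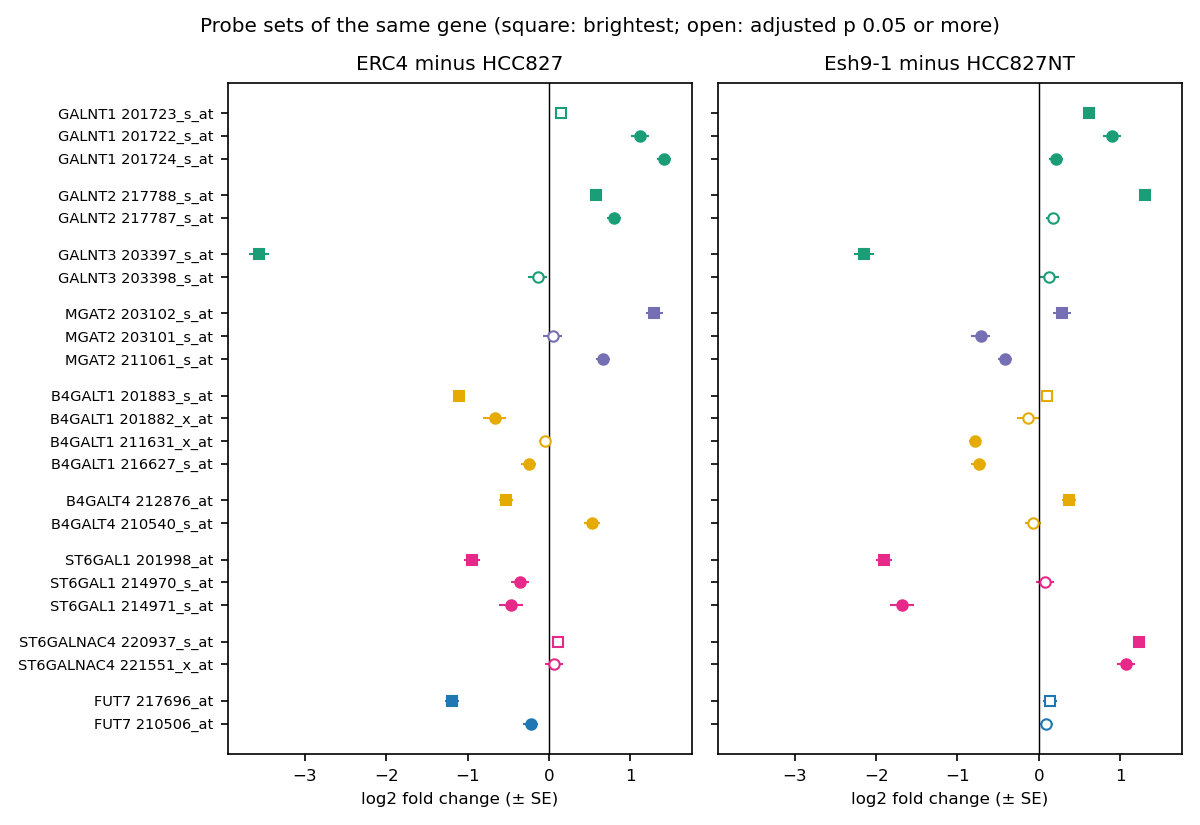
Log2 fold change (x axis, ± SE) of each probe set of 9 genes in ERC4 minus HCC827 (left) and Esh9-1 minus HCC827NT (right); squares are the brightest probe set of a gene, and open symbols did not pass a limma adjusted p of 0.05. B4GALT4 on the left and MGAT2 on the right hold filled symbols on both sides of 0, and the GALNT3 decrease is carried by the brightest probe set.

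The change in ERC4 and that in Esh9-1 were set against each other directly, as the first minus the second. The difference passed the test for 35 of the 58 genes, 9 above 0 and 26 below, against 49.6% of all genes in either direction. Because the arrays of the Esh9-1 pair had a wider spread of log2 values (SD 2.25 to 2.28) than those of the ERC4 pair (1.83 to 1.96), part of such a difference can be one of scale, which cannot be told apart here. On its brightest probe set the decrease of GALNT3 was larger in ERC4 (difference -1.42 ± 0.17, limma adjusted p = 1e-05). For B4GALT1, called lower in ERC4 and not called in Esh9-1 on its brightest probe set, the difference was -1.21 ± 0.10 (limma adjusted p = 1.4e-07). It depends on the probe set: 2 of the others had -0.05 and -0.25 in ERC4, beside -0.78 and -0.74 in Esh9-1. The decrease of GALNT6 was larger in Esh9-1 (1.37 ± 0.13, limma adjusted p = 1e-06), and so was that of ST6GAL1 on its brightest probe set (0.95 ± 0.14, limma adjusted p = 4.6e-05). GALNT6 averaged 6.17 in HCC827, near the array medians of 5.74 to 5.75, and the part of this low start was not tested. The dimmest ST6GAL1 probe set went the other way, with -0.36 in ERC4 and 0.08 in Esh9-1, while the third had -0.47 and -1.68.

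Genes that supply or precede these enzymes were called in both directions. Of 19 genes for the synthesis and transport of nucleotide sugars, 9 rose and 6 fell in ERC4 (47.4% and 31.6%, against 28.9% and 28.8% of all genes), and 5 rose and 6 fell in Esh9-1 (26.3% and 31.6%, against 25.3% and 24.6%). UAP1, which makes UDP-N-acetylglucosamine and UDP-N-acetylgalactosamine, rose 3.29-fold in ERC4, to a mean log2 level of 9.04, against 7.32 in HCC827 (limma adjusted p = 4.7e-10). It rose 2.71-fold in Esh9-1, to 11.34, against 9.91 in HCC827NT (limma adjusted p = 1.3e-09). NANS, which makes sialic acid, rose 2.39-fold in Esh9-1 and 1.32-fold in ERC4, and MPI, which supplies mannose phosphate, fell 2.03-fold there and rose 1.57-fold in ERC4. SLC35A1, the transporter of CMP-sialic acid, rose 1.99-fold and SLC35A3, that of UDP-N-acetylglucosamine, 1.59-fold in ERC4, and neither passed in Esh9-1. GALT, of galactose metabolism, rose 1.60-fold in Esh9-1 and 1.31-fold in ERC4.

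Of 14 genes that transfer and trim the N-glycan precursor, 5 rose and 3 fell in ERC4 (35.7% and 21.4%, against 28.9% and 28.8% of all genes). In Esh9-1, 2 rose and 3 fell (14.3% and 21.4%, against 25.3% and 24.6% of all genes). The glucosidase gene GANAB rose 1.75-fold in ERC4 and the mannosidase gene MAN1A2 rose 1.81-fold in Esh9-1. Of 19 other glycan enzymes, 6 rose and 5 fell in ERC4 (31.6% and 26.3%, against 28.9% and 28.8% of all genes). In Esh9-1, 9 rose and 5 fell (47.4% and 26.3%, against 25.3% and 24.6% of all genes). UGCG, which makes glucosylceramide, rose 2.64-fold in ERC4 and 3.76-fold in Esh9-1. C1GALT1, which adds galactose to the sugar the GALNT enzymes lay down, rose 2.10-fold in ERC4 and 2.12-fold in Esh9-1, with means of 6.62 in ERC4 and 5.55 in HCC827, and of 8.25 in Esh9-1 and 7.17 in HCC827NT. NEU1, the lysosomal sialidase, rose 2.07-fold in ERC4 but was 1.85-fold lower in Esh9-1, and OGT, which adds N-acetylglucosamine to proteins of the cytosol and nucleus, rose 2.04-fold in ERC4 but was 1.25-fold lower in Esh9-1 (limma adjusted p = 0.0024). POMGNT1, of O-mannose chains, rose 2.12-fold in Esh9-1 and 1.30-fold in ERC4.

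In all, 15 of the 58 genes passed the test in neither comparison on their brightest probe sets, against 2912 of all 11963 genes. The pseudogene GCNT1P1 was among the 15. Of these 15, 11 averaged below the array median in all 4 groups, as did 20 of the 58 genes in all.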

How the data were processed

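The 12 arrays carry 22277 probe sets each. The deposited values are intensities on a linear scale made by the authors with RMA, per the submitters' processing notes; the RMA version is not given in the sources used here, nor is it said which arrays were run together. By their medians the arrays fall into sets of 6 arrays, and both comparisons lie within a set.

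Values were taken to log2(value + 1), which understates fold changes of dim genes. The platform annotation gave 19070 probe sets 1 symbol, 1043 several and 2164 none; only the first were used, which left out the probe sets for GALNT4. The brightest probe set per gene gave 11963 genes. One further fucosyltransferase gene is not reported here. Tests used limma 3.58.1 under R 4.3.3, with lmFit and eBayes on a model of the 4 groups and 12 arrays (8 residual degrees of freedom, two-sided, Benjamini-Hochberg over all genes), and genes were called at an adjusted p under 0.05. The ± beside a log2 fold change is the standard error from limma. The difference of effects is a contrast of the same model. The procedure was tested on simulated data. Precision is limited by having 3 arrays in a group.

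Per-array values are given for called genes changed at least 2-fold in a comparison whose arrays do not overlap and whose higher group mean reaches the array median. GALNT12 in ERC4 and ST6GALNAC5 in Esh9-1 miss the last condition and were added after their values were seen, as were the genes with opposite calls. Differences of effects are given for members changed at least 2-fold or with opposite calls. Other pathway genes named are those of up to 4 called per list with the largest change. The genes and lists were chosen with earlier results of these data known. Motifs were counted in RefSeq promoter windows. Alternatives were a block on replicate number, fits of 6 arrays, eBayes with trend and robust settings, quantile normalization within sets, median centring, a filter on dim genes, no pseudocount, averaged probe sets, calls at 0.01 and each array left out in turn. Figures were drawn with matplotlib 3.10.9.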

Additional observations from a re-analysis of the deposited data

Results flagged for a closer look

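For 17 genes the change in ERC4 differed from that in Esh9-1 by the contrast of the effects (limma adjusted p under 0.05), among the genes changed at least 2-fold in either comparison or called in opposite directions. The value is the ERC4 log2 fold change minus the Esh9-1 log2 fold change, and 49.6% of all genes passed the same test. No reason for these differences was tested, and the array medians differ between the pairs.

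Among the starters of O-glycans it was -1.42 for GALNT3, -1.42 for GALNT12, -1.36 for GALNT7 and -0.72 for GALNT2, and 1.37 for GALNT6. GALNT6 therefore fell further in Esh9-1, while GALNT3 and GALNT12 fell further in ERC4. GALNT6 averaged 6.17 in HCC827, near the array medians of 5.74 to 5.75, and 9.24 in HCC827NT, where the medians were 7.15 to 7.17. The part of this lower start in its difference was not tested. The GALNT2 value rests on the brightest probe set, since the other had 0.80 in ERC4 and 0.18 in Esh9-1. The size of the GALNT3 value does too, since its dimmer probe set had -0.14 in ERC4 and 0.13 in Esh9-1. The core 2 enzyme gene GCNT1 had -1.45. B3GNT2, of chain extension, had 0.78, and its mean of 5.80 in HCC827 also lay near the array medians, while it was 7.92 in HCC827NT.

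Among the galactosyltransferases it was -1.21 for B4GALT1, -1.0 for B4GALT2, -0.90 for B4GALT4 and 0.56 for B4GALT5. The B4GALT4 value rests on a brightest probe set that the gene's other probe set contradicts in ERC4. That of B4GALT1 also rests on the brightest probe set, since as the mean of 4 probe sets its changes were -0.52 in ERC4 and -0.39 in Esh9-1. The other probe set of B4GALT5 had 0.60 in ERC4 and -0.04 in Esh9-1. MGAT2, of N-glycan branching, had 1.01.

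Among the sialyltransferases it was 0.95 for ST6GAL1, -1.12 for ST6GALNAC4 and -0.83 for ST6GALNAC5. The dimmest ST6GAL1 probe set went the other way, with -0.36 in ERC4 and 0.08 in Esh9-1, while the third had -0.47 and -1.68. Among the fucosyltransferases it was -1.33 for FUT7 and -1.15 for FUT8, the first a decrease called in ERC4 and the second a decrease in ERC4 beside a rise in Esh9-1. The other FUT7 probe set had smaller changes, -0.23 in ERC4 and 0.09 in Esh9-1.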

How the results depend on the processing

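The 58 genes gave 116 log2 fold changes, and 22 alternative settings gave 2487 further values of them, of which 2382 kept their direction and their side of the threshold, 60 lost a call, 40 gained one and 5 reversed. The 15 changes of at least 2-fold kept direction and call in all 325 of their alternatives. Both counts overstate how far direction was tested, because many settings cannot move a log2 fold change. Replicate blocks, fits of 6 arrays, trend and robust settings, the dim-gene filter and the stricter threshold left each log2 fold change unchanged. So did leaving out an array of the other pair. In all of these only the call could change. The reversals were B4GALT5 in ERC4, -0.067 after quantile normalization within each set, and, when probe sets were averaged per gene, B4GALT4 in ERC4 (0.002), B4GALT1 in Esh9-1 (-0.39), B4GALT6 in Esh9-1 (0.28) and MGAT2 in Esh9-1 (-0.28). Without dim genes 5982 genes were tested, and 27 of the 58 were left in ERC4 and 24 in Esh9-1, so counts fell by construction. In ERC4 6 of the 58 were then higher (22.2% of those left) and 13 lower (48.1%). Of all genes tested, 2787 were higher there (46.6%) and 1445 lower (24.2%). In Esh9-1 11 were higher (45.8% of those left) and 8 lower (33.3%). Of all genes tested, 2288 were higher there (38.2%) and 1948 lower (32.6%). The difference of effects was called for 17, and it has no value in fits of 6 arrays. After quantile normalization the Pearson r between comparisons over the 58 genes was 0.57.

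Leaving out each array in turn gave 8 to 10 of the 58 higher and 28 to 29 lower in ERC4, 13 to 15 higher and 9 to 15 lower in Esh9-1, 32 to 36 called in the difference, and -1.34 to -1.24 for EGFR in Esh9-1. Over all genes it gave 3189 to 3441 higher and 2874 to 3447 lower in ERC4, and 2759 to 3108 higher and 2627 to 3098 lower in Esh9-1. Arrays of the same replicate number correlated at 0.00 to 0.07 in their deviations in ERC4 and HCC827, and at -0.12 to -0.02 in Esh9-1 and HCC827NT, so the numbers were not taken to pair samples. With the replicate number as a block, 8 of the 58 were higher and 30 lower in ERC4, 14 higher and 13 lower in Esh9-1, and 35 called in the difference. A block on the 6 compared arrays, added after seeing the data, gave 9, 28, 14 and 14. Signal over background limits the dim genes, for which the values hold no detection calls.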
